A study of Rattus norvegicus with 6 samples.

Results

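The genes described here are 36 targets and partners of ATF4, the transcription factor at the centre of the integrated stress response. They were taken by symbol from a list of ATF4, CHOP and ATF3, their feedback genes, the serine, asparagine and proline synthesis enzymes and the cytosolic tRNA synthetases, and all 36 were among the 17315 genes of the tables. They were read in adult rat hippocampal NSCs of the line HCN, a clonal culture. The siControl NSCs received a negative control Stealth RNAi duplex and the siDerl1 NSCs received a single Stealth duplex against *Derl1*, so that an effect of that duplex on other transcripts and an effect of Derlin-1 loss cannot be told apart. Derlin-1 is a membrane protein of the ER that takes part in the removal of misfolded proteins. Both groups spent 2 days in proliferation medium, and then the same time in a medium that makes NSCs quiescent, which held BMP4 at 50 ng/mL together with bFGF at 10 ng/mL. There were 3 samples in each of 2 groups, numbered 1 to 3, and the labels do not say whether a number marks a separate culture, so a p-value measures the spread between these samples only. Poly(A) RNA was sequenced, and expression was given by the authors as TPM, a share of transcripts corrected for transcript length and scaled to 1000000 per sample. TPM keeps no read numbers, so the depth behind a value is unknown.

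In the integrated stress response, kinases that sense ER stress, amino acid shortage, double-stranded RNA or heme shortage phosphorylate the translation factor eIF2. This lowers protein synthesis in general, while the *Atf4* mRNA is translated better because of short upstream reading frames. ATF4 then pairs with other bZIP proteins and switches on genes for amino acid synthesis and uptake, tRNA charging and, when stress persists, the CHOP and TRIB3 genes linked to cell death. An RNA level of *Atf4* is therefore not a measure of ATF4 protein, and the RNA of its targets is the usual readout.

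ATF4 dimers bind the C/EBP-ATF response element, whose core can be written TGATGNAA (either strand, N standing for any base). This core was searched in the RefSeq promoter windows of the rat assembly GRCr8, which run from 250 bases before to 50 bases after an annotated start. A window was found for 32 of the 36 genes, and 11 of the 32, or 34.4%, held the core, against 4.0% of all 33469 windows. The genes are known ATF4 targets, and such elements are among the reasons why genes are listed as targets, so this share is a description only. The core was in 7 of 11 windows of the tRNA charging genes in 3 of 8 windows of the feedback and stress effectors, in 1 of 8 windows of the amino acid synthesis genes and in 0 of 5 windows of the transcription factors. Of the 12 matches, 10 read TGATGCAA on the forward strand of the element, 1 in *Trib3* reads TGATGTAA and 1 in *Aars* TGATGAAA. The following stretches of at most 30 bases show the element in the 7 genes with a match whose level in every sample is given below and, for contrast, in *Cars*, whose difference had the opposite sign. They are written 5′ to 3′ on the strand of the gene with the core in capitals.
Trib3: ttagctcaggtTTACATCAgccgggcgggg
Chac1: cttctccgccgTTGCATCActcctgctagg
Nupr1: aaaaggccagaTTGCATCAgacagggcttg
Pycr1: ggtcctgtgtaTGATGCAAtgtacaaggct
Iars: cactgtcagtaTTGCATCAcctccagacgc
Tars: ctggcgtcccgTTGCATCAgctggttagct
Mars: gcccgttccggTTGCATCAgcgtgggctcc
Cars: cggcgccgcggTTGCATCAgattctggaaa

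In GRCr8 these stretches lie at chr3:161275536-161275565 for *Trib3* (minus strand), chr3:126795953-126795982 for *Chac1* (plus strand), chr1:190645938-190645967 for *Nupr1* (minus strand) and chr10:106420925-106420954 for *Pycr1* (minus strand). The stretch of *Iars* is at chr17:15193658-15193687, that of *Tars* at chr2:62114811-62114840, that of *Mars* at chr7:65023752-65023781 and that of *Cars* at chr1:208225334-208225363, all on the minus strand. The core starts 21 bases before the annotated start in *Trib3*, 24 in *Iars*, 27 in *Tars*, 17 in *Mars*, 55 in *Nupr1*, 131 in *Pycr1* and 167 in *Chac1*. In *Cars* it starts at base 18 of the transcript. In 7 of the 8 stretches the element points against the gene, so that it reads as TTGCATCA or, in *Trib3*, as TTACATCA, and in *Pycr1* it points along the gene.

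The knockdown was read first. *Derl1* (NM_001014202) was at 122, 132 and 128 TPM in siControl samples 1, 2 and 3 and at 44.9, 70.8 and 74.0 TPM in siDerl1 samples 1, 2 and 3. Every siDerl1 sample was below every siControl sample, and the ratio of the means was 0.498. The log2 fold change was −1.03, with an adjusted p of 0.497 from limma and of 0.00884 when samples of equal number were set side by side (the replicate number as a block), but of 0.104 with the block when low genes were kept and 0.229 with the block when limma used no trend of variance with intensity. The libraries numbered 1 stood apart from the other 4: the first principal component, with 55.7% of the variance of the 10331 genes tested (mean of at least 1 TPM over the 6 samples), placed both of them on one side and the second, with 16.2%, divided the groups. Of the 36 genes, 10 were lower in both samples numbered 1 than in any other sample and 6 were higher, or 27.8% and 16.7%, against 17% and 15.7% of all genes tested. Interferon-induced genes differed with the number, and 19 of 19 were lower in both samples numbered 1 than in the other 4, with summed levels from 223 to 1260 TPM in siControl and from 210 to 2220 TPM in siDerl1 NSCs and median differences by number of 0.02, 0.69 and 0.79. All 19 also had a positive log2 difference between the groups, with a median of 0.42, a larger value than that of the ATF4 response genes given below. None of the 19 had an adjusted p under 0.05 in limma without the block, and 5 had one with it, where 0.194% of all genes tested did on the higher side. The smallest was 0.00478, for *Mx1*, but there were 0 when low genes were kept or no trend was used. Without siControl sample 1 the median was −0.28 and 1 of 19 was higher, but siDerl1 sample 1 then had no partner of its number. By number, 11, 19 and 19 of the 19 were higher. With both samples numbered 1 left out, 19 of 19 were higher and the median was 0.69. Of 10 neural stem cell genes, 9 were at 1 TPM or more in every sample, *Sox2* and *Nes* among them, while *Prom1* was listed at 0. Of 8 microglia genes, 7 stayed under 1 TPM in all samples, with summed levels of 3.73 to 4.43 TPM in siControl and 3.80 to 5.72 TPM in siDerl1 NSCs. The summed levels of 8 neuron genes were 107 to 150 and 103 to 139 TPM, those of 8 astrocyte genes 1210 to 1430 and 1300 to 1690 TPM, and those of 7 endothelial and mural genes 0.93 to 1.38 and 1.82 to 2.30 TPM. For the last of these lists the sums did not overlap, but 6 of the 7 genes stayed under 1 TPM in all samples. Most of the difference came from 1 member, *Pdgfrb*, a receptor of mural cells, whose groups did not overlap. It was at 0.393 ± 0.116 TPM in siControl and 1.25 ± 0.248 TPM in siDerl1 NSCs (SD, n = 3 each), both near the floor. *Gfap*, an astrocyte filament that NSCs also make, was at 34.5 ± 10.8 TPM in siControl and 53.0 ± 11.5 TPM in siDerl1 NSCs (SD, n = 3 each), and its adjusted p from limma was 0.704, or 0.0219 with the block, 0.111 when low genes were also kept and 0.229 when the block was used with no trend. The groups did not overlap for *Aldoc*, a glycolytic enzyme of astrocytes, which was higher in siDerl1 NSCs (log2 difference 0.25), nor for *Nes* (−0.26) and the neuron genes *Dcx* (−0.42) and *Syt1* (−0.34), which were lower. Of all genes tested, 5.09% were separate on the higher and 8.52% on the lower side. The other 3 neuron genes tested had positive values, with 3 of 5 higher and a median of 0.11, and of the 9 stem cell genes tested 5 were higher, with a median of 0.02. Of the 6 astrocyte genes tested 5 were higher, with a median of 0.30, and *Slc1a3* was lower (−0.15). With both samples numbered 1 left out 4 of the 6 astrocyte genes were higher, with a median of 0.24. The oligodendrocyte lineage gene *Sox10* was abundant, between 541 and 787 TPM, while the mature myelin genes *Mog* and *Mobp* were listed at 0. In bulk RNA a change in the share of a cell type cannot be told apart from a change within cells, and the part of these genes in the values below was not tested.

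In siDerl1 NSCs, 30 of the 36 ATF4 response genes had a higher mean on the log2 scale than in siControl NSCs and 6 had a lower one. The median log2 fold change of the 36 genes, taken on log2(TPM + 1), was 0.12, where that of all 10331 genes tested was −0.02 and 45.2% of these were higher. The differences were small, with a range from −0.16 (*Cars*) to 0.79 (*Atf3*). None of the 36 had an adjusted p under 0.05 in limma, where 0% of all genes tested were called, and the adjusted p values lay between 0.704 and 0.999. At an unadjusted p under 0.05 there were 4 of the 36 on the higher side, where 2.67% of all genes were, and 0 on the lower side, where 4.03% were. These 4 were *Ddit3*, *Asns*, *Cebpb* and *Sars*. The 2 groups did not overlap, with all siDerl1 samples on the higher side, for 7 of the 36, where 5.09% of all genes tested showed this, and with all of them on the lower side for 0 of the 36, where 8.52% did. The 7 genes were *Ddit3*, *Stc2*, *Asns*, *Eprs*, *Gars*, *Iars* and *Sars*. For each of these the exact permutation test of the TPM gave a two-sided p of 0.1, and a smaller value is not possible with 3 samples in each group. All 36 passed the filter on low values, the least abundant being *Stc2* with a mean of 6.43 TPM and the most abundant *Atf4* with 375 TPM.

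**Figure D1:**
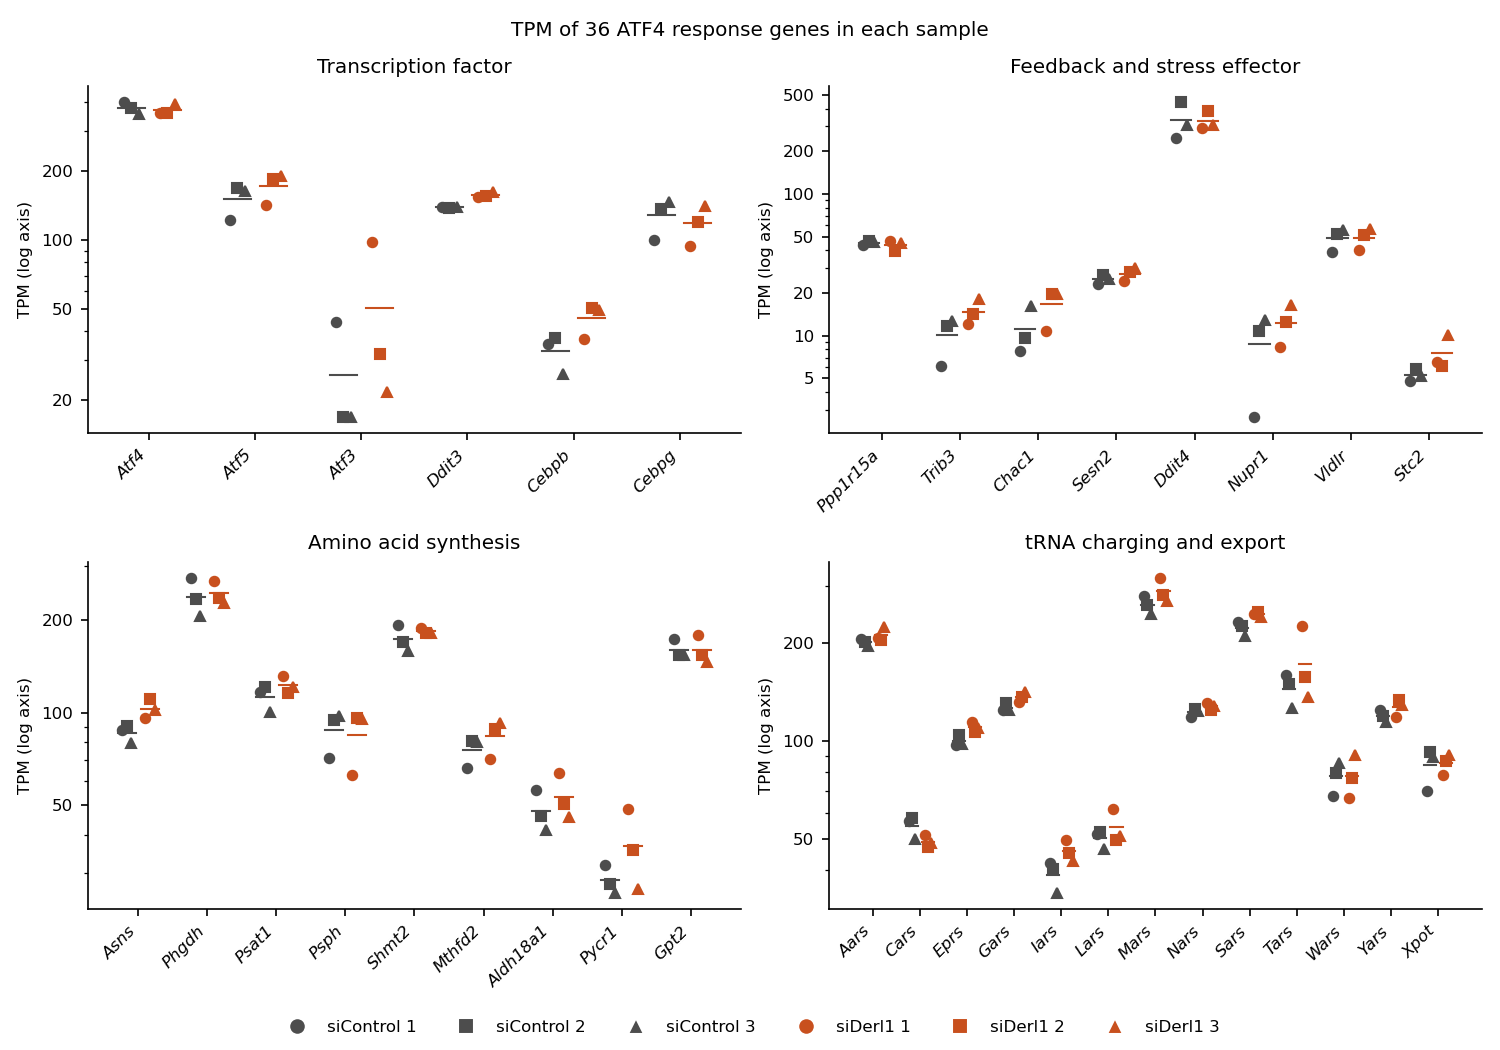
TPM (log axis) of the 36 genes in each of the 6 samples, by role. Grey marks are siControl and orange marks siDerl1 samples, the shape gives the sample number and the short lines are group means (n = 3); *Ddit3* and *Asns* show separate groups, while for *Atf3* both samples numbered 1 lie above the others of their group and for *Nupr1* and *Trib3* siControl sample 1 lies below all other samples.

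When the replicate number was added to the fit as a block, so that siDerl1 and siControl samples of equal number were compared, 16 of the 36 genes had an unadjusted p under 0.05 on the higher side, where 6.84% of all genes did, and 0 on the lower side, where 8.88% did. Again none of the 36 had an adjusted p under 0.05, where 0.194% of all genes tested did on the higher and 0.358% on the lower side. The smallest adjusted p was that of *Atf3*, at 0.0517. The count of 16 depended on the fit and was 15 with low genes kept and 9 when no trend was used, where 5.65% and 5.93% of all genes were on the higher side. The count of 4 in the fit without the block was 2 without siControl sample 2 or without siDerl1 sample 2, where 1.9% and 1.54% of all genes were. With both samples numbered 1 left out, 28 of the 36 were higher in siDerl1 NSCs, the median was 0.12 and 9 had an unadjusted p under 0.05, all of them on the higher side, where 4.6% of all genes were higher and 6.49% lower by that measure.

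Between samples of the same number, 28, 25 and 30 of the 36 genes were higher in siDerl1 than in siControl NSCs for numbers 1, 2 and 3. The medians were 0.13, 0.06 and 0.17, where those of all genes tested were 0.01, −0.03 and −0.03. In 20 of the 36, or 55.6%, all 3 differences were positive, where 15.8% of all genes tested had this, and in 2, *Cebpg* and *Cars*, all 3 were negative, or 5.56% against 22.1%. The summed TPM of the 36 genes was 3920, 4140 and 3820 in siControl samples 1, 2 and 3 and 4230, 4230 and 4200 in siDerl1 samples 1, 2 and 3, so that the 3 sums with the *Derl1* duplex were above the 3 without it. The sum is led by the abundant genes *Atf4*, *Ddit4*, *Mars* and *Phgdh* and by the synthetases.

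**Figure D2:**
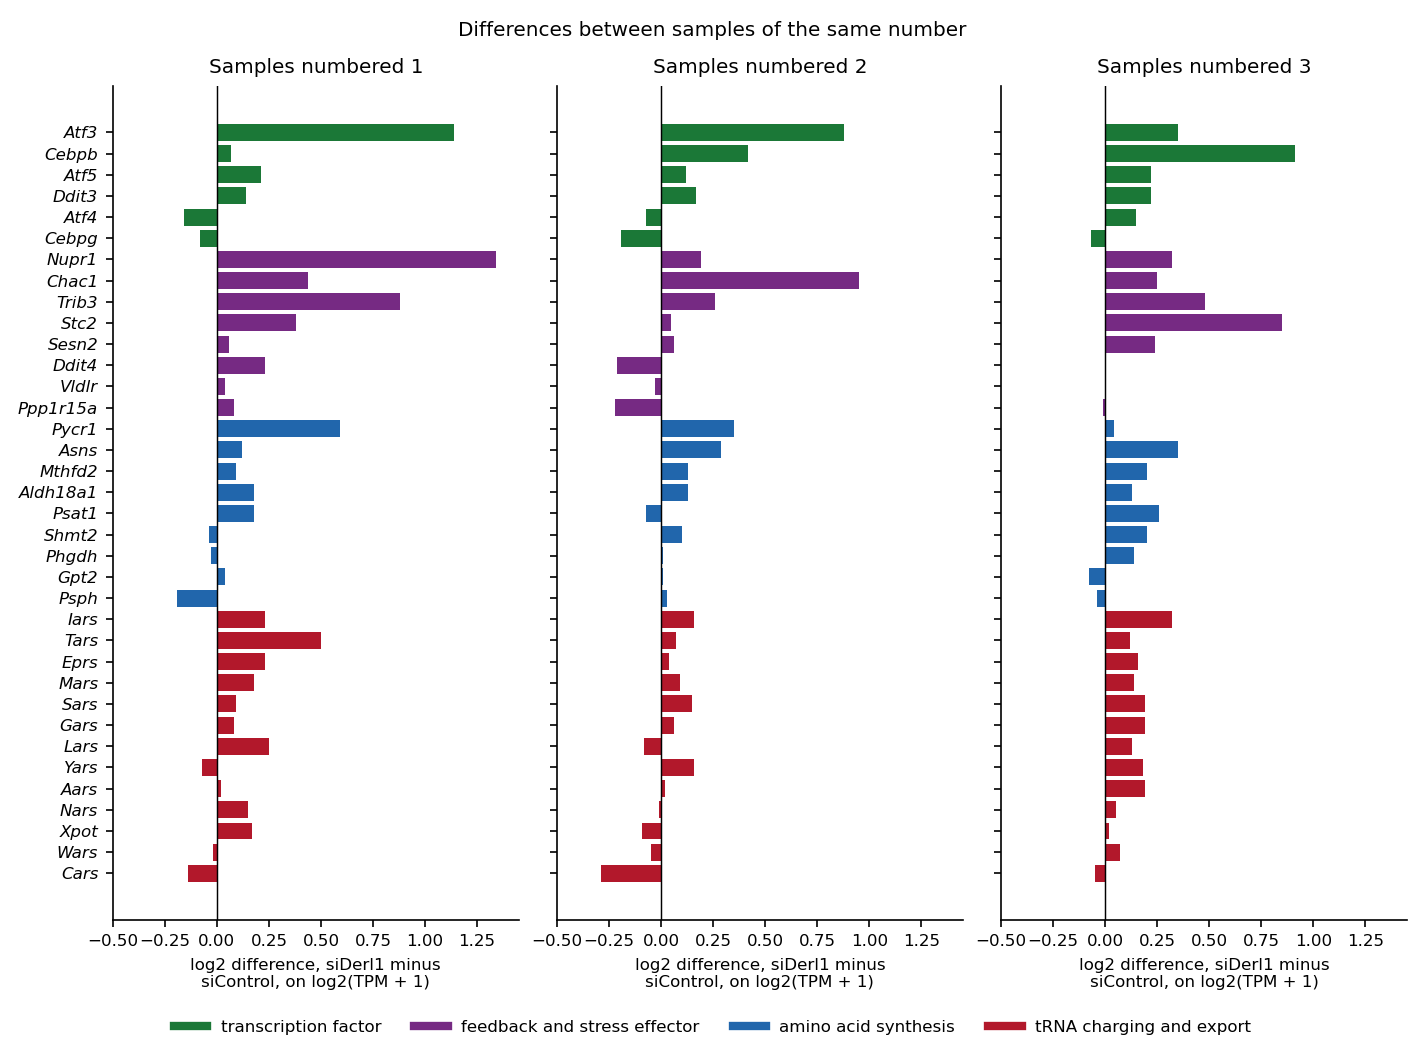
log2 difference on log2(TPM + 1) between the siDerl1 and the siControl sample of the same number, for each of the 36 genes, coloured by role. Positive bars prevail for all 3 numbers (28, 25 and 30 of 36), and the genes with the longest bars differ between the numbers, with *Nupr1* and *Atf3* for number 1, *Chac1* and *Atf3* for number 2 and *Cebpb* and *Stc2* for number 3.

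Among the 6 transcription factors, *Ddit3*, *Cebpb*, *Atf3* and *Atf5* had positive log2 differences and *Atf4* and *Cebpg* negative ones. The groups were separate for *Ddit3* and overlapped for the other 5, and the median of the 6 was 0.18, or 0.11 without siControl sample 1. With both samples numbered 1 left out the median was 0.18. *Atf4* (NM_024403) was at 402, 377 and 355 TPM in siControl and at 361, 360 and 393 TPM in siDerl1 samples 1, 2 and 3. Its mean over the 6 samples was the highest of the 36 genes, although *Ddit4* was above it in both samples numbered 2. The groups overlapped, with a log2 fold change of −0.03 (standard error 0.07, 95% interval from −0.18 to 0.13). This interval is narrow, and the direction turned without siControl sample 1, where the value was 0.02.

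*Ddit3* encodes CHOP, the bZIP factor that stays low in unstressed cells in most tissues and is tied to death under lasting ER stress. It was at 140, 138 and 140 TPM in siControl and at 154, 155 and 163 TPM in siDerl1 samples. The siControl values lay within a few TPM of each other, and all siDerl1 values were above them. The log2 fold change was 0.17 (standard error 0.05, 95% interval from 0.05 to 0.30, adjusted p = 0.704 from limma), or a ratio of means of 1.13, and the differences by number were alike, at 0.14, 0.17 and 0.22.

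*Atf3*, an early stress-induced repressor that ATF4 activates, had the largest log2 fold change of the 36, 0.79. Its values were 43.7, 16.98 and 16.9 TPM in siControl and 97.8, 32.0 and 21.8 TPM in siDerl1 samples. The samples numbered 1 were high in both groups and the groups overlapped, so that the standard error was 0.58 and the 95% interval ran from −0.57 to 2.15. Without siControl sample 1 the value was 1.23 and without siDerl1 sample 1 it was 0.17. By number the differences were 1.14, 0.88 and 0.35.

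*Cebpb*, a bZIP partner of ATF4 that is also used in inflammation and growth, was at 35.2, 37.6 and 26.0 TPM in siControl and at 37.0, 50.7 and 49.7 TPM in siDerl1 samples. siDerl1 sample 1 lay within the siControl range and the other siDerl1 samples above it. The log2 difference was 0.47 (adjusted p = 0.704 from limma, standard error 0.17), and the differences were uneven between the numbers, at 0.07, 0.42 and 0.91, and without siControl sample 3 the value was 0.31. *Atf5*, a relative of ATF4 with the same kind of translational control, was at 122, 169 and 164 TPM in siControl and at 142, 184 and 191 TPM in siDerl1 samples. Its log2 fold change was 0.18, with low values in both samples numbered 1 and differences of 0.21, 0.12 and 0.22 by number. It ranged from 0.04, without siControl sample 1, to 0.32, without siDerl1 sample 1, and was 0.17 with both left out. *Cebpg*, the bZIP protein that dimerizes with ATF4 on amino acid genes, differed by −0.11 on the log2 scale (adjusted p = 0.946). With 1 sample left out this ran from −0.28 to 0.04, and the direction turned without siDerl1 sample 1.

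Of the 8 feedback and stress effectors, 7 were on the higher side, with a median of 0.27 that moved with single samples. With both samples numbered 1 left out, the median was 0.20 and 5 of 8 were higher. Without siControl sample 1 the median was 0.04 and 5 of 8 were higher, and without siDerl1 sample 3 it was 0.14 with 6 of 8 higher. *Trib3*, a pseudokinase that ATF4 and CHOP induce and that damps their action, was at 6.06, 11.7 and 12.7 TPM in siControl and at 12, 14.3 and 18.1 TPM in siDerl1 samples. Only siDerl1 sample 1 lay within the siControl range. On the log2 scale the difference was 0.54 (standard error 0.27, adjusted p = 0.764), with differences of 0.88, 0.26 and 0.48 by number. It ranged from 0.24, without siControl sample 1, to 0.72 with 1 sample left out, and was 0.37 with both samples numbered 1 left out.

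*Chac1*, which breaks down glutathione and is a late product of the ATF4, ATF3 and CHOP cascade, was at 7.76, 9.62 and 16.2 TPM in siControl and at 10.9, 19.5 and 19.5 TPM in siDerl1 samples. Its groups overlapped by siControl sample 3 and siDerl1 sample 1. On the log2 scale the difference was 0.55 (standard error 0.31, adjusted p = 0.772), with 0.44, 0.95 and 0.25 by number, and it was 0.34 without siControl sample 1 and 0.83 without siControl sample 3. *Nupr1*, a small chromatin-bound stress protein, was at 2.66, 10.9 and 12.8 TPM in siControl and at 8.27, 12.5 and 16.3 TPM in siDerl1 samples. siControl sample 1 was far below all others, and without it the log2 fold change of 0.62 was 0.01. siDerl1 sample 1 was also the lowest of its group, and with both samples numbered 1 left out the log2 fold change was 0.26. By number the differences were 1.34, 0.19 and 0.32.

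*Stc2*, a secreted glycoprotein induced by ER stress, was at 4.8, 5.85 and 5.16 TPM in siControl and at 6.55, 6.07 and 10.1 TPM in siDerl1 samples. The groups did not overlap, but siDerl1 sample 3 made most of the difference, and the log2 fold change was 0.43 with it and 0.22 without it. *Sesn2*, a leucine sensor that holds back mTORC1, was at 23.2, 26.8 and 25.01 TPM in siControl and at 24.3, 27.9 and 29.8 TPM in siDerl1 samples, a log2 fold change of 0.12 (standard error 0.11) with overlapping groups, or 0.06 without siDerl1 sample 3 and 0.20 without siDerl1 sample 1. *Ppp1r15a*, which encodes GADD34, the phosphatase subunit that brings eIF2 back to its active state, was at 43.6, 46.5 and 45.5 TPM in siControl and at 46.2, 39.7 and 45.3 TPM in siDerl1 samples. It had a log2 fold change of −0.05 (95% interval from −0.25 to 0.15). *Ddit4*, an mTORC1 inhibitor, and *Vldlr*, a lipoprotein receptor, both had a log2 fold change of 0.01, with opposite directions among the numbers.

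**Figure D3:**
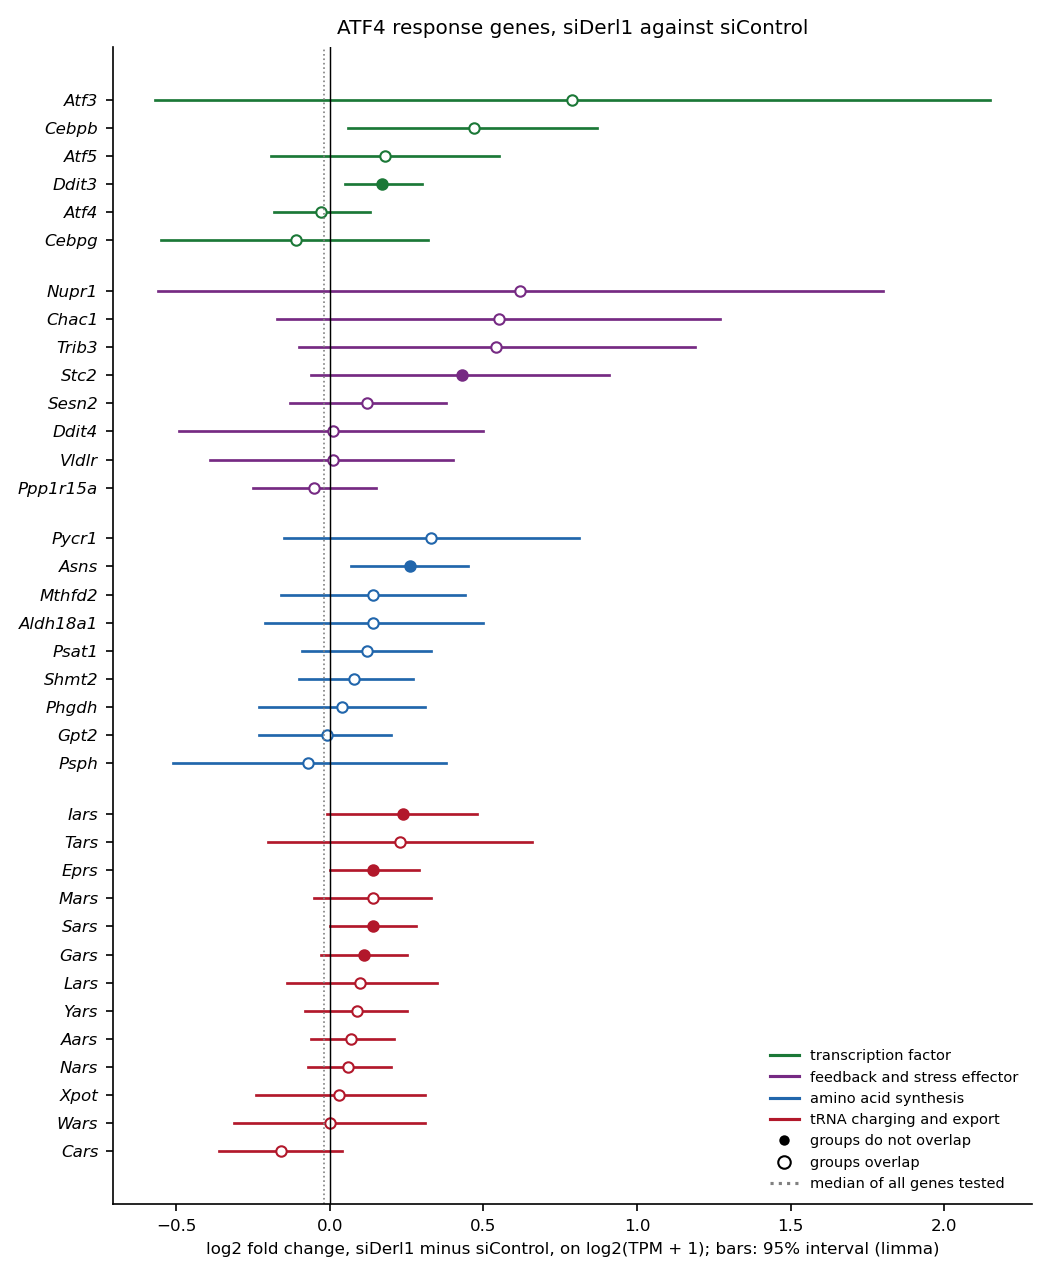
log2 fold change of siDerl1 against siControl NSCs on log2(TPM + 1) for the 36 genes, by role, with the 95% interval from limma (n = 3 in each group). Filled circles mark the 7 genes whose groups do not overlap, and the dotted line is the median of all genes tested (−0.02); most points lie to the right of 0, and most intervals cover it.

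Of the 9 enzymes of amino acid synthesis, 7 were on the higher side, and the median was 0.12, or 0.05 without siControl sample 3 and 0.07 without siDerl1 sample 1. The clearest separation was that of *Asns*, asparagine synthetase, a standard marker gene of the amino acid response. It was at 88.1, 90.3 and 79.7 TPM in siControl and at 96.1, 111 and 102 TPM in siDerl1 samples, so that the groups did not overlap. The means were 86.0 ± 5.58 and 103 ± 7.34 TPM (SD, n = 3 each). This is a log2 difference of 0.26 (standard error 0.08, 95% interval from 0.07 to 0.45, adjusted p = 0.704 from limma), and leaving out any 1 of the samples gave values from 0.20 to 0.30.

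The enzymes of serine synthesis had overlapping groups. *Phgdh*, the first of them, was at 275, 234 and 207 TPM in siControl and at 269, 236 and 228 TPM in siDerl1 samples. Both groups had their highest value in sample 1, and the log2 fold change was 0.04 (95% interval from −0.23 to 0.31). *Psat1*, the second enzyme, was at 116, 121 and 100 TPM in siControl and at 131, 115 and 121 TPM in siDerl1 samples (log2 fold change 0.12, 95% interval from −0.09 to 0.33, and 0.05 without siControl sample 3). *Psph*, the third enzyme, had a log2 fold change of −0.07, which ran from −0.21 to 0.14 with 1 sample left out. *Shmt2*, which passes the serine carbon on to folate in mitochondria, had one of 0.08, or 0.02 without siControl sample 3.

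*Mthfd2*, the next mitochondrial folate enzyme, was at 66.1, 81.0 and 80.2 TPM in siControl and at 70.4, 88.7 and 92.6 TPM in siDerl1 samples. Its differences by number were small and all positive, at 0.09, 0.13 and 0.20. The log2 fold change of 0.14 was 0.05 without siControl sample 1, 0.26 without siDerl1 sample 1 and 0.17 with both left out. *Pycr1*, which makes proline, was at 31.9, 27.7 and 25.9 TPM in siControl and at 48.5, 35.6 and 26.7 TPM in siDerl1 samples. Its difference was widest for samples 1, at 0.59, and near 0 for samples 3, at 0.04, and the log2 fold change of 0.33 was 0.11 without siDerl1 sample 1, 0.53 without siDerl1 sample 3 and 0.19 with both samples numbered 1 left out. *Aldh18a1*, which precedes it in proline synthesis, had a log2 fold change of 0.14, or 0.01 without siDerl1 sample 1 and 0.26 without siControl sample 1, and *Gpt2*, a mitochondrial alanine aminotransferase, one of −0.01.

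Of the 13 tRNA charging genes 12 were on the higher side, with a median of 0.10. By number, 10, 8 and 12 of the 13 were higher, and 10 of 13 were without siControl sample 1 or without siDerl1 sample 3. These enzymes join amino acids to their tRNAs in the cytosol, and *Xpot* encodes the protein that exports tRNA from the nucleus. In 4 of the 13 the groups did not overlap, with siDerl1 NSCs on the higher side, where 5.09% of all genes tested showed this. *Iars*, for isoleucine, was at 42.0, 40.2 and 34.1 TPM in siControl and at 49.5, 45.2 and 42.7 TPM in siDerl1 samples, with a log2 fold change of 0.24 (standard error 0.11, adjusted p = 0.741), or 0.15 without siControl sample 3. *Sars*, for serine, was at 232, 225 and 210 TPM and at 246, 250 and 240 TPM, with a log2 fold change of 0.14 (standard error 0.06, adjusted p = 0.739 from limma).

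*Eprs*, for glutamate and proline, was at 97.3, 104 and 98.0 TPM in siControl and at 114, 107 and 109 TPM in siDerl1 samples. *Gars*, for glycine, was at 125, 130 and 124 TPM and at 132, 136 and 142 TPM. In these genes the lowest siDerl1 value was only a few TPM above the highest siControl value, and the log2 fold changes were 0.14 and 0.11. *Mars*, for methionine, was at 280, 262 and 245 TPM in siControl and at 318, 280 and 270 TPM in siDerl1 samples. *Tars*, for threonine, was at 159, 149 and 126 TPM and at 225, 157 and 136 TPM. Both were highest in sample 1 of either group and overlapped between the groups. Without siDerl1 sample 1 the log2 fold change went from 0.23 to 0.02 for *Tars* and from 0.14 to 0.07 for *Mars*. With both samples numbered 1 left out it was 0.09 for *Tars* and 0.12 for *Mars*.

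*Wars*, for tryptophan, is also induced by interferon. It was at 67.8, 79.7 and 85.7 TPM in siControl and at 66.7, 77.1 and 90.2 TPM in siDerl1 samples, lowest in both samples numbered 1 like the interferon genes, and its log2 fold change was 0.00 (95% interval from −0.31 to 0.31). *Cars*, for cysteine, was the only one of the 13 on the lower side, with a log2 fold change of −0.16 (95% interval from −0.36 to 0.04), and without any single sample it stayed between −0.23 and −0.12. The others, *Aars*, *Lars*, *Nars*, *Yars* and *Xpot*, had log2 fold changes of 0.07, 0.10, 0.06, 0.09 and 0.03. Without siDerl1 sample 3 that of *Aars* was 0.03 and that of *Xpot* −0.01, without siDerl1 sample 1 that of *Lars* was 0.01, and without siControl sample 1 that of *Xpot* was −0.09. Over the 13 members of all roles given here without each sample's value, from *Cebpg* to *Xpot*, TPM lay between 39.2 and 447 and the adjusted p between 0.767 and 0.998.

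Of the 11 genes with the C/EBP-ATF core in the promoter window, 10 were higher in siDerl1 NSCs, with a median log2 fold change of 0.23 and a range from −0.16 to 0.62. Of the 21 genes whose window did not hold these letters, 16 were higher, with a median of 0.10 and a range from −0.11 to 0.47. The groups did not overlap in 1 of the 11, *Iars*, and in 5 of the 21, where 5.09% of all genes tested were separate on the higher side. *Asns*, *Ddit3* and *Sars* are among the latter, and the difference between these sets was not tested. Bases outside the windows were not searched, so a gene without a match may hold the core elsewhere.

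The genes upstream of ATF4 lay mostly on the other side. Of 16 eIF2 kinases, eIF2 and eIF2B subunits and regulators, 14 were lower in siDerl1 NSCs, with a median log2 fold change of −0.08 and none with an adjusted p under 0.05. *Impact*, which encodes an inhibitor of the amino acid sensing kinase GCN2, was at 67.1, 64.3 and 60.5 TPM in siControl and at 53.8, 53.1 and 53.0 TPM in siDerl1 samples. All siDerl1 samples were below all siControl samples, and the log2 difference was −0.26 (adjusted p = 0.704 from limma, standard error 0.07). The ER stress kinase gene *Eif2ak3* was at 23.3, 21.8 and 26.5 TPM and at 21.9, 22.4 and 24.2 TPM, with overlapping groups. The double-stranded RNA kinase gene *Eif2ak2*, itself interferon-induced, was at 37.6, 79.6 and 80.0 TPM in siControl and at 35.6, 108 and 102 TPM in siDerl1 samples, with differences of −0.08, 0.44 and 0.35 by number. With 1 sample left out, between 2 and 5 of the 16 genes were higher, the largest count being that without siDerl1 sample 3, and 4 were higher with median-of-ratios scaling or without siControl sample 3.

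The 8 cytosolic tRNA synthetases outside the list had a median log2 fold change of −0.03 and 3 of 8 on the higher side, where the 13 tRNA charging genes of the list had 0.10 and 12 of 13. *Farsa*, a subunit of the phenylalanine enzyme, was at 96.0, 93.4 and 95.03 TPM in siControl and at 82.8, 82.2 and 87.8 TPM in siDerl1 samples. Its groups did not overlap, and the log2 difference was −0.17 (standard error 0.06, adjusted p = 0.704 from limma). Without siControl sample 3 the median of the 8 was 0.00, with 4 of 8 higher. Of the 15 mitochondrial synthetases 10 were higher, with a median of 0.06, or 0.02 without siDerl1 sample 1, 0.12 without siControl sample 1 and 0.14 without siDerl1 sample 3. *Ears2* was at 9.79 ± 0.172 TPM in siControl and 12.8 ± 1.91 TPM in siDerl1 NSCs (SD, n = 3 each; log2 fold change 0.35, adjusted p = 0.712), while *Rars2* was at 20.0 ± 1.25 and 15.6 ± 1.24 TPM (log2 fold change −0.34, adjusted p = 0.704), both with groups that did not overlap. The differences between these lists were not tested.

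Among other known ATF4 or CHOP targets, *Eif4ebp1* had the largest log2 difference. It encodes 4E-BP1, which holds back cap-dependent translation. It was at 98.6, 110 and 118 TPM in siControl and at 145, 164 and 139 TPM in siDerl1 samples, with no overlap. The log2 fold change was 0.45 (standard error 0.09, 95% interval from 0.23 to 0.67, the smallest unadjusted p of these lists). The adjusted p from limma was 0.669, and 0.0366 with the replicate block, where it was the only gene of the 7 lists described here to pass. Over all alternatives the adjusted p ran from 0.0366 to 0.996, and with the block it was 0.168 with low genes kept and 0.255 when no trend was used. In the same list *Map1lc3b*, an autophagosome gene, differed by −0.16 (adjusted p = 0.736), and 4 of the 9 genes tested were higher, or 7 of 9 without siDerl1 sample 1. The median of the 9 was −0.05 and turned with single samples, from −0.12 without siDerl1 sample 2 to 0.17 without siControl sample 2. With both samples numbered 1 left out the median was 0.11, with 5 of 9 higher. *Tnfrsf10b*, the death receptor gene downstream of CHOP, was at 0.11 TPM in siControl sample 1 and listed at 0 in the other 5.

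The 8 amino acid transporters under ATF4 that were tested went both ways, with 4 of 8 higher, a median log2 fold change of −0.01 and a range from −0.31 to 0.21. With 1 sample left out the median lay between −0.05 and 0.01. *Slc7a11*, the cystine carrier, was at 1.71 ± 0.857 TPM in siControl and 1.15 ± 0.564 TPM in siDerl1 NSCs (SD, n = 3 each; log2 fold change −0.31, and from −0.61 to −0.09 with 1 sample left out). *Slc1a4*, for neutral amino acids, was at 19.6 ± 1.36 and 22.9 ± 1.63 TPM (log2 fold change 0.21, adjusted p = 0.763), with groups that did not overlap. Of 13 neighbouring enzymes 8 were higher, with a median of 0.04, or between 0.01 and 0.06 with 1 sample left out. The range was from −0.21 to 0.51, the largest rise being that of *Aldh1l2*, a mitochondrial folate enzyme. It was at 3.19 ± 0.643 and 5.11 ± 1.72 TPM, with overlapping groups (adjusted p = 0.763 from limma), and from 0.33 to 0.75 on the log2 scale with 1 sample left out. *Prodh*, which breaks proline down, was at 12.5 ± 0.875 and 17 ± 3.87 TPM, with groups that did not overlap (log2 fold change 0.40, adjusted p = 0.740 from limma). Its log2 fold change was 0.23 without siDerl1 sample 1.

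The ER chaperones and other genes of the IRE1 and ATF6 arms of the unfolded protein response were mostly on the lower side. Of 18, 15 were lower in siDerl1 NSCs, with a median log2 fold change of −0.10, and 0 had an adjusted p under 0.05. In 4 of the 18 the groups did not overlap, with siDerl1 NSCs on the lower side, where 8.52% of all genes tested showed this. *Hyou1*, an ER chaperone of the HSP70 family, was at 134, 160 and 150 TPM in siControl and at 100, 120 and 131 TPM in siDerl1 samples (log2 fold change −0.34, standard error 0.11, adjusted p = 0.704 from limma). *Dnajb9*, a target of IRE1 and XBP1, was at 24.7, 32.2 and 25.9 TPM and at 22.4, 22.4 and 22.2 TPM (log2 fold change −0.29, adjusted p = 0.733 from limma, and −0.17 without siControl sample 2). All siDerl1 samples of both genes were below all siControl samples. The count of higher genes was 3 of 18 with all samples and moved with single samples, from 0 without siControl sample 1 to 1 without siDerl1 sample 3, 5 without siControl sample 2 or 3 and 8 without siDerl1 sample 1. The median was −0.21 without siControl sample 1 and −0.04 without siDerl1 sample 1. With both samples numbered 1 left out it was 2 of 18, and the median was −0.12.

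**Figure D4:**
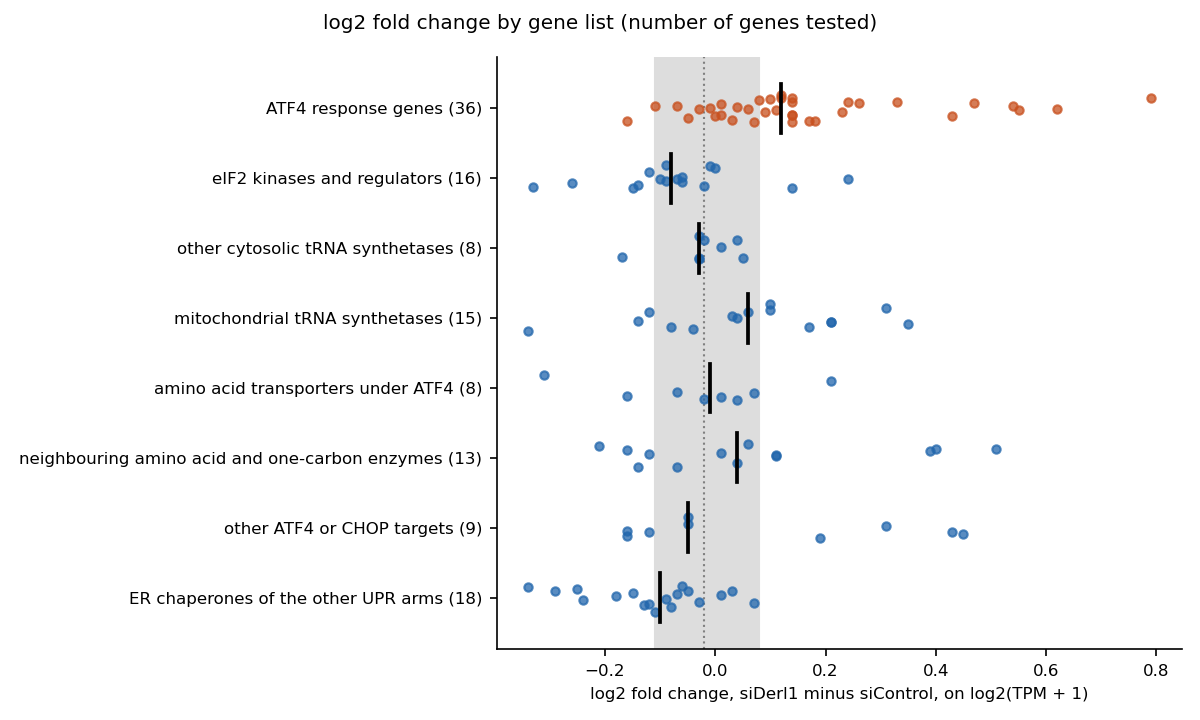
log2 fold change of siDerl1 against siControl NSCs on log2(TPM + 1) for the ATF4 response genes (orange) and 7 related lists (blue), 1 point per gene, with the number tested in brackets. Black bars are list medians, the grey band holds the middle 50% of all genes tested (−0.11 to 0.08), a spread of single genes and not of list medians, and the dotted line is their median. Points of every list lie on both sides of 0, with 30 of 36 of the ATF4 response genes to its right and 15 of 18 of the ER chaperones to its left.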

How the data were processed

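RNA-seq was made of 3 siControl and 3 siDerl1 samples, grouped and numbered by their titles. Per the labels and the methods, the authors used Trimmomatic 0.39 for trimming, STAR 2.7.3a for alignment to rn6 and RSEM 1.3.2 for quantification. The deposited values are TPM with 2 decimals. They sum to 1000000, keep no depth and allow no counting error, and RSEM may split reads of near-identical genes. Shares of a fixed sum can shift together.

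The 36 genes and the related lists were chosen with earlier results of these data known. log2(TPM + 1) was compared with limma (version 3.58.1, R 4.3.3; lmFit, then eBayes with trend) in the 10331 genes whose mean reached 1 TPM, with Benjamini-Hochberg adjustment over all of them. The study's own test models counts, which TPM do not give. TPM of all 6 samples was printed for 12 genes fixed by name and for members with an unadjusted p under 0.05 in the fit with or without the replicate block or with groups that did not overlap, 23 in all. Of related lists, genes with an unadjusted p under 0.05 were named, otherwise the largest rise and fall. *Aldh1l2*, *Eif2ak2*, *Eif2ak3* and *Tnfrsf10b* were chosen after their values were seen.

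Whether replicate numbers pair the samples was checked first: deviations from the group means of same-numbered samples correlated at 0.70, 0.35 and 0.51 over genes, all over 0.1. The main fit nevertheless used the group only, and the replicate block was an alternative. Standard errors, intervals and adjusted p values are from the main fit unless the block is named. Numbers 2 and 3 were less distinct: siControl sample 2 correlated at 0.345 with siDerl1 sample 3, and siControl sample 3 at 0.248 with siDerl1 sample 2. Both values also pass 0.1, so this limit cannot tell numbers 2 and 3 apart. No 2 samples shared more than 0.642% of values. Alternatives were a pseudocount of 0.1, no filter, a filter at a mean of 5 TPM, median-of-ratios scaling, no intensity trend, the replicate block, each sample left out and both samples numbered 1 left out. The block without a filter or without a trend was added after the data were seen. Identifiers were matched to RefSeq (GRCr8) for promoters only.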

Additional observations from a re-analysis of the deposited data

How the results depend on the processing

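None of the 36 genes passed an adjusted p of 0.05 in any alternative. *Atf3* came closest, at 0.0517 with the replicate block, which pairs samples by number. The block changed no call among the 36. The median log2 fold change stayed between 0.09 and 0.15 with 1 sample left out and at 0.12 to 0.14 in the other fits, and 28 to 31 genes were higher. The count with an unadjusted p under 0.05 on the higher side, 4 as reported, was 16 with the replicate block, 15 with the block when low genes were kept, 9 with the block when no trend was used, 9 with both samples numbered 1 left out, and between 2 and 6 with 1 sample left out. On the lower side it was 0, and between 0 and 1 with 1 sample left out. Groups that did not overlap, 7 on the higher and 0 on the lower side, numbered between 9 and 14 and between 0 and 1 with 1 sample left out, and 18 and 2 with both samples numbered 1 left out, where fewer samples make separation easier by construction. Of all genes tested, 7.99% to 11.1% were then separate on the higher and 11.5% to 17.9% on the lower side with 1 sample left out, and 16.3% and 26.5% with both samples numbered 1 left out. The direction was the same in all settings for 26 of the 36, and the other 10 had small values that crossed 0 in at least 1 setting, *Atf4*, *Phgdh* and *Wars* among them. TPM keeps no depth, so what depth limits cannot be given, and 3 samples in each group leave intervals wide for genes that differ between the numbers.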
